A study of Homo sapiens with 6 samples.

Results

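Bone morphogenetic proteins (BMPs), the secreted antagonists that trap them and the ID genes that respond to them were followed in PC3 cells. The cells had been given siRNA against CITED2 or non-targeting siRNA. The 10 genes were chosen by symbol: the ID genes ID1, ID2, ID3 and ID4, the ligands BMP2, BMP4, BMP6 and BMP7, and the antagonists NOG and GREM1. All 10 were among the 24462 gene symbols in the files, each with 1 row, and 7 of them were among the 16314 genes that passed the filter on low counts. PC3 is an established human line that was grown out of prostate cancer spread to bone. RNA-seq libraries were made from 3 cultures given non-targeting siRNA (si-Control) and 3 given CITED2 siRNA (si-CITED2), both at 80 nM and collected after 72 h, in medium with serum. The study's methods list 1 siRNA sequence against CITED2, while its results speak of siRNAs in the plural. Only 1 cell line was sequenced, with no arm of untransfected cells analysed here.

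BMPs bind receptor pairs of type I and type II, which phosphorylate SMAD1, SMAD5 and SMAD9. These SMADs pair with SMAD4 and act in the nucleus, where ID1, ID2 and ID3 are among their best known direct targets. ID proteins have a helix-loop-helix but no DNA-binding region, so they hold E proteins such as TCF3 and TCF12 away from DNA. NOG (noggin) and GREM1 (gremlin) bind BMPs outside the cell and keep them from the receptors, and in prostate cancer BMPs are known mainly for their part in bone metastasis.

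The targeted gene was examined first. CITED2 mRNA was 858.6, 892 and 773 normalised counts in the si-Control libraries and 1084.3, 921.1 and 983.9 in the libraries labelled si-CITED2, where a normalised count is a read count scaled to the same effective library size. It was thus higher, not lower, in all 3 libraries labelled si-CITED2 (log2 fold change 0.24, standard error (SE) 0.07, adjusted p = 0.0363). All adjusted p-values given here are Benjamini-Hochberg values of the quasi-likelihood test in edgeR, and below 0.05 a gene is said to be called. The call on CITED2 was lost in 4 of the 6 fits that left out 1 library, with adjusted p from 0.0536 to 0.154 in those 4 (without si-Control replicate 1 or 3, or si-CITED2 replicate 1 or 3), and with library size in place of TMM (0.0518). The study checked the knockdown on the protein, which was not analysed here, so each direction given here rests on the labels and not on the CITED2 mRNA.

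The libraries held 19508925 to 28936374 counts, so that 3 counts, taken as the detection floor, were 0.104 to 0.154 CPM, the count scaled to a common library size. The first principal component (47.7% of the variance) separated the groups, and replicates differed by more than sampling noise. As known for PC3 cells, KLK2 and KLK3 had at most 2 counts in any library. Of 10 genes listed as expressed in PC3, 9 passed the filter. FOLR1, with at most 4 counts, did not. Of 7 blood cell markers, 2 were higher in the libraries labelled si-CITED2: HBB and HBA1 summed to 0.9 to 2.4 normalised counts in si-Control and to 62.4 to 83.1 in the others. The defining marker PTPRC had at most 2 counts in si-Control and was at 0 in all 3 others, and the whole list summed to 3198.6 to 3448.5 and 2949.4 to 3528.7 normalised counts, nearly all of it CD68. None of the 8 fibroblast and endothelial markers passed the filter. The part of blood cell RNA in the results below was not tested.

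The start regions of the ID genes are shown because ID1 and ID3, both textbook targets of the same SMADs, moved in opposite directions here while ID2 did not pass the test. The windows run from 250 bases before to 50 bases after the annotated start, 5′ to 3′ on the strand of the gene, from RefSeq (GRCh38.p14). Capitals mark the 4-base SMAD box GTCT, or AGAC where it lies on the other strand, and the 6-base GC motif GGCGCC.

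ID1, chr20:31605039-31605338, plus strand, carries 3 SMAD boxes, which start 162, 136 and 25 bases before the start site, and a TATA box (TATAAA).
ID1: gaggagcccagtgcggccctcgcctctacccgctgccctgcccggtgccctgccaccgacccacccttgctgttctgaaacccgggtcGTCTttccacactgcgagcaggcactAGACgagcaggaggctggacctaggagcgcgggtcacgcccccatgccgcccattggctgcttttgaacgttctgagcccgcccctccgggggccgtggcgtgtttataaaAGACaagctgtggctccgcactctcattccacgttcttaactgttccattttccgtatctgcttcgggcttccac
ID3, chr1:23559452-23559751, minus strand, carries 2 SMAD boxes, at 158 and 146 bases before the start site, facing each other across 8 bases.
ID3: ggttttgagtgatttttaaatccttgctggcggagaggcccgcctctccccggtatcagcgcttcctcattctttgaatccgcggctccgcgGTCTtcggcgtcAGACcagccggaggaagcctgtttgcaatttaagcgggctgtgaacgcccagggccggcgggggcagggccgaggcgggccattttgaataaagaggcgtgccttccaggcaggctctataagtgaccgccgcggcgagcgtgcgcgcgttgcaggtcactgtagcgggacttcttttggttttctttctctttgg
ID2, chr2:8681806-8682105, plus strand, also carries 2, at 103 and 95 bases before the start site, facing each other across 4 bases.
ID2: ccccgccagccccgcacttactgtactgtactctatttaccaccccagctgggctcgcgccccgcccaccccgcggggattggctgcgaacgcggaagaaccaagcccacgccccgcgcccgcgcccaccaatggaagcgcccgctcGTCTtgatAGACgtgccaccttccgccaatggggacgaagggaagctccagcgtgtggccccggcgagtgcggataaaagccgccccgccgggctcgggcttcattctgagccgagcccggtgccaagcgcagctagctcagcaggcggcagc

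Both strands were searched. GTCT was found in 84% of all 35116 promoter windows of this length, so its presence sets no ID gene apart. GTCT followed by AGAC within 10 bases was found in 3.05% of all windows, in those of ID2 and ID3 and in none of the other 8 windows of these genes, ID1 included. That pair was looked for after the windows had been seen. GGCGCC, present in 19.2% of all windows, was not in those of ID1, ID2 or ID3. TATAAA, in 11.5% of all windows, was in that of ID1 but not in those of ID2 and ID3. Other motifs searched grouped the genes otherwise. GGGCGG (45% of all windows) and CCAAT (34.6%) were in those of ID1 and ID2 but not of ID3. TGACG (24.6%) was in that of ID3 but not of ID1 or ID2, and CANNTG (68.7%) in that of ID2 but not of ID1 or ID3. TGACGTCA (1.85%) was in none of them. A match is only a run of letters, and no binding was measured here. Sequence outside these windows was not searched, so a motif absent from a window may still lie farther from the start. Windows were found for 7 of the 10 genes, and BMP2, BMP7 and NOG had none in the table.

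Of the 7 genes in the fit, 2 were higher in the libraries labelled si-CITED2 (ID3 and NOG), 1 was lower (ID1) and 4 did not pass an adjusted p of 0.05 (ID2, BMP4, BMP6 and BMP7). Among all genes tested, 17.4% were called, 9.36% as higher and 8.09% as lower. The median log2 fold change was 0.08 over the 7 genes and 0 to 2 decimals over all genes (-0.001). The 3 called genes were also the 3 whose groups did not overlap, which 32.5% of all fitted genes showed, 16.4% with si-CITED2 higher and 16.1% with it lower. In bulk RNA of a culture, fewer cells expressing a gene and less of its RNA per cell cannot be told apart.

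**Figure D1:**
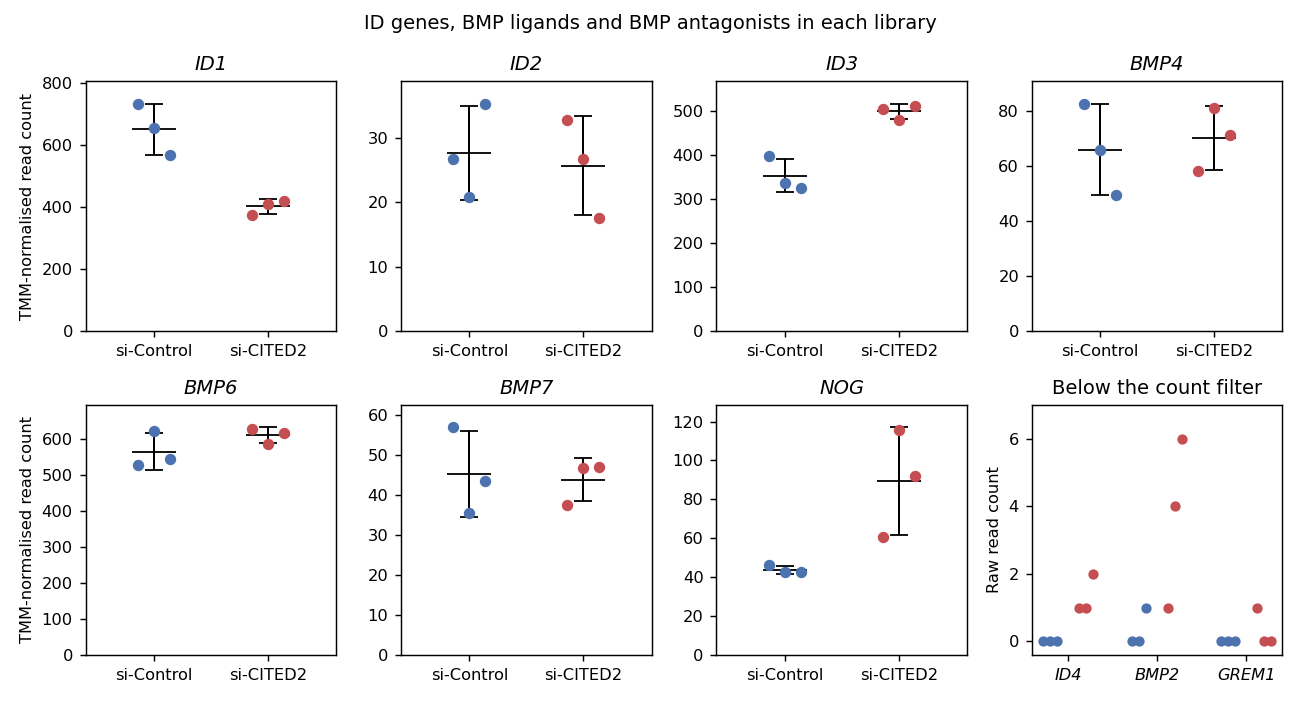
Normalised read counts of the 7 fitted genes, and raw counts of the 3 genes below the filter, in each si-Control (blue) and si-CITED2 (red) library, with the group mean and SD (n = 3) for the fitted genes. The si-CITED2 points lie below all si-Control points for ID1 and above all of them for ID3 and NOG, and the groups overlap for ID2, BMP4, BMP6 and BMP7.

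ID1, which holds back differentiation in many cell types, had the most counts of the ID genes in si-Control. It had 730.6, 652.9 and 566 normalised counts in si-Control replicates 1, 2 and 3 and 375.2, 409.9 and 420.7 in the libraries labelled si-CITED2. Every library labelled si-CITED2 lay below every si-Control library, and the lowest si-Control value stood well clear of the highest of the others. The mean fell from 649.8 ± 82.4 to 401.9 ± 23.8 normalised counts (SD, n = 3 each), 0.617 times the si-Control level (95% interval 0.538 to 0.709; log2 fold change -0.70, SE 0.09, adjusted p = 5.37e-05 from edgeR). By the size of its fold change it ranked 708 among the 16314 genes tested.

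ID3, a close relative of ID1 in sequence and in binding to E proteins, went the other way. It was counted at 396.4, 336.5 and 325.9 normalised counts in si-Control and at 505.1, 478.7 and 511.6 in the libraries labelled si-CITED2. The groups did not overlap. The mean rose from 352.9 ± 38 to 498.5 ± 17.5 normalised counts (SD, n = 3 each), a 1.41-fold change (95% interval 1.23 to 1.61; log2 fold change 0.49, SE 0.09, adjusted p = 0.000974 from edgeR).

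ID2 and ID4, the remaining members of the family, were weakly expressed. ID2 had 26.7, 20.9 and 35.3 normalised counts in si-Control and 32.8, 26.8 and 17.5 in the libraries labelled si-CITED2. The groups overlapped fully and the 95% interval of the fold change reached from 0.596 to 1.49 (adjusted p = 0.893 from edgeR), so a change as large as that of ID1 or ID3 was not resolved at this depth. ID4 was counted 0, 0 and 0 times in si-Control and 1, 1 and 2 times in the others, at or below the floor in every library.

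The balance within the family needs no normalisation, since both genes are read from the same library. The ratio of ID1 counts to ID3 counts was 1.84, 1.94 and 1.74 in si-Control and 0.743, 0.856 and 0.822 in the libraries labelled si-CITED2. ID1 was thus the more counted of the pair in every si-Control library and the less counted one in all others (mean 1.84 ± 0.102 against 0.807 ± 0.0582, SD, n = 3 each; exact two-sided permutation test, p = 0.1, the least that such groups can give). Per kilobase of the longest coding transcript (1233 bases for ID1, 1251 for ID3), ID1 made up 64.2%, 65.5% and 62.3% of the ID counts in si-Control and 42%, 45.6% and 44.9% in the others. ID3 rose from a share of 34.3% ± 1.05 to 54% ± 1.61 (SD, n = 3 each), while ID2 held between 1.13% and 2.35% in every library. With the shorter principal transcript of ID1 (994 bases), a length choice added after the data had been seen, the shares in the libraries labelled si-CITED2 were 49.5% ± 1.96 for ID1 and 48.8% ± 1.66 for ID3 (SD, n = 3), so which of the pair was the larger in that group depended on the length, while the ID1 share differed between the groups by -19.8 points with the first length and by -19.3 with the second.

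**Figure D2:**
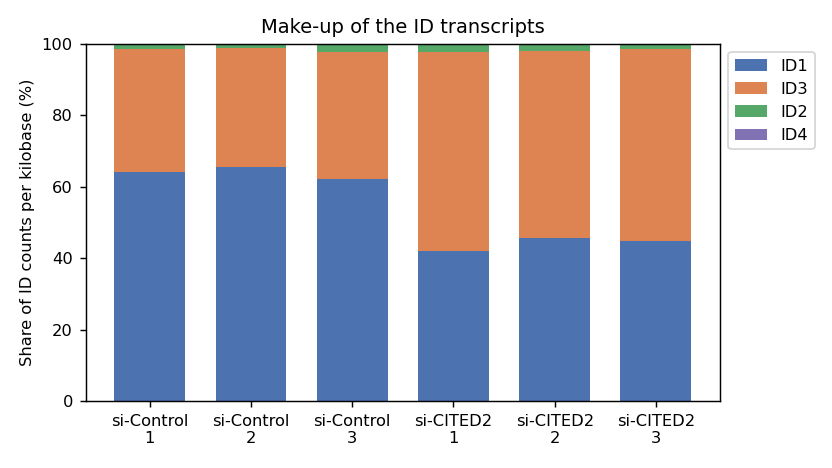
Share of each ID gene in the counts per kilobase (longest coding transcript) of ID1 to ID4, in percent, for each of the 6 libraries. ID1 takes 62.3% to 65.5% in si-Control and 42% to 45.6% in si-CITED2, and ID3 takes most of the remainder.

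Among the ligands, BMP6, which signals through ACVR1 and BMPR2 and is known from iron metabolism and bone, was the most abundant. It had 527.9, 624.7 and 544.8 normalised counts in si-Control and 629, 587.6 and 619 in the libraries labelled si-CITED2. The groups overlapped, and the fold change of 1.08 had a 95% interval of 0.959 to 1.21 (adjusted p = 0.416 from edgeR). Of the 4 ligands it was the one measured most tightly.

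BMP4, a ligand of early development and of bone, had 82.7, 66 and 49.4 normalised counts in si-Control and 58.3, 81.2 and 71.2 in the libraries labelled si-CITED2. BMP7, which acts in kidney and bone and is expressed in prostate, had 56.9, 35.4 and 43.5 against 37.6, 46.8 and 47.1. Neither separated the groups. The 95% intervals of the fold change were 0.779 to 1.44 for BMP4 (adjusted p = 0.843 from edgeR) and 0.688 to 1.38 for BMP7 (adjusted p = 0.941), so smaller changes were not detectable at these counts.

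BMP2, the ligand used to induce bone, was near the floor. It was counted 0, 0 and 1 times in si-Control and 1, 4 and 6 times in the libraries labelled si-CITED2. Pooled, 1 count stood against 11, a ratio of 12.7 with an exact interval from 1.85 to 547 that covers counting error only. No library passed 0.279 CPM, and with every symbol kept that had a count the gene missed the threshold (adjusted p = 0.095 from edgeR).

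Of the antagonists, NOG rose and GREM1 was at the floor. NOG, which binds BMP2 and BMP4 with high affinity and BMP7 with a lower one, had 46.2, 42.7 and 42.4 normalised counts in si-Control and 60.7, 115.6 and 92 in the libraries labelled si-CITED2. The si-Control values lay close together and the others were spread widely, yet all above them. The mean rose from 43.75 ± 2.14 to 89.45 ± 27.5 normalised counts (SD, n = 3 each), a 2.06-fold change (95% interval 1.48 to 2.86; log2 fold change 1.04, SE 0.22, adjusted p = 0.00339 from edgeR). By size of fold change NOG ranked 290 among all genes tested, ahead of both ID1 and ID3. Leaving out 1 library gave log2 fold changes of 0.80 to 1.25, each with an adjusted p of at most 0.0403. GREM1 was counted once, in si-CITED2 replicate 1, and in no other library.

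**Figure D3:**
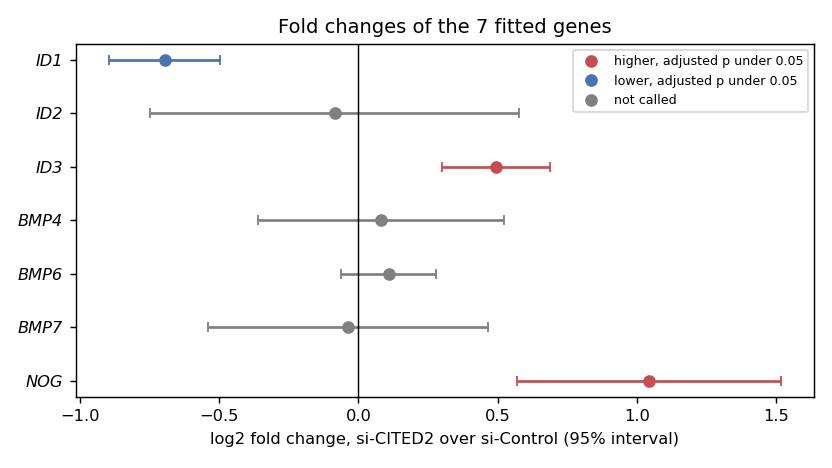
Log2 fold change of the 7 fitted genes, si-CITED2 over si-Control, with 95% intervals (n = 3 per group, edgeR). The intervals of ID1 (below 0), ID3 and NOG (above 0) exclude 0, and those of ID2, BMP4, BMP6 and BMP7 include it.

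Levels of different genes were compared as CPM per kilobase of the longest coding transcript. In si-Control, ID1 was highest at 22.4 ± 2.84, followed by ID3 at 12 ± 1.29, BMP6 at 8.64 ± 0.79, BMP4 at 1.46 ± 0.368, NOG at 0.982 ± 0.0481, ID2 at 0.575 ± 0.15 and BMP7 at 0.479 ± 0.115 (SD, n = 3). Only ID2 and BMP7 had overlapping libraries among the neighbours in this order. In the libraries labelled si-CITED2, ID3 at 16.9 ± 0.592 stood above ID1 at 13.8 ± 0.819. That order was lost with the principal transcript of ID1, which gave ID1 17.2 ± 1.02 and libraries that overlapped those of ID3. NOG at 2.01 ± 0.618 stood beside BMP4 at 1.56 ± 0.255 with overlapping libraries in that group. NOG was thus below BMP4 in si-Control and level with it within the spread in the other group. BMP2, ID4 and GREM1 were below 0.08 in every library.

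Of the 10 genes, 4 have neighbours on the other strand in GENCODE 29 (GRCh38). ID2 overlaps ID2-AS1, BMP7 overlaps BMP7-AS1, ID4 overlaps AL022068.1 and GREM1 overlaps AC090877.2, and since it is not stated whether strand was used in counting, reads from these partners cannot be told apart from their own. ID1, ID3, NOG, BMP2, BMP4 and BMP6 overlap no other annotated gene. ID1 and NOG are short genes, on chromosome 20 from 31605283 to 31606515 and on chromosome 17 from 56593699 to 56595590, both on the plus strand. The longest coding transcript of each has 1 exon and covers the whole gene. For ID1 that form has nothing spliced out, and its principal transcript is shorter (994 against 1233 bases). For NOG the longest and the principal transcript have the same length (1892 bases).

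The remaining genes of the pathway, and the TGF-β, activin and nodal ligands, were followed in 8 lists. They held 90 genes, of which 57 passed the filter. In these lists 11 genes were higher and 2 lower, or 22.8% called, against 17.4% of all genes. The lists were chosen with earlier results of these data known, so the difference in share is not a test of the pathway. The median log2 fold change was 0.10, against -0.001 over all genes.

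Of 15 other BMP and GDF ligands, 6 were in the fit and 0 were called by edgeR or by DESeq2. At an unadjusted p under 0.05 there was 1, BMP5 (log2 fold change -0.59, SE 0.25, adjusted p = 0.127), named after its value was seen. The most abundant, BMP8B, had 179.4 ± 5.64 and 197.3 ± 30.3 normalised counts (SD, n = 3 each), but BMP8A is a near copy and reads of the pair may be split uncertainly. Of 13 TGF-β, activin and nodal ligands 4 were fitted and 1 was called: TGFB1, the main ligand of the SMAD2 and SMAD3 branch, rose from 4037 ± 141 to 4943 (log2 fold change 0.29, SE 0.05, adjusted p = 0.000411 from edgeR). GDF11 did not pass, at 565 ± 23.1 and 558.6 ± 12.9 normalised counts.

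Among 17 other secreted antagonists and BMP-binding proteins, 11 were fitted, 2 rose and 1 fell. FSTL3, a follistatin-like protein that neutralises activin more than BMPs, had 412.4, 418.6 and 389.5 normalised counts in si-Control and 1471.7, 1422.7 and 1400.2 in the libraries labelled si-CITED2. That is a 3.51-fold rise with no approach between the groups. TWSG1, which binds BMPs together with chordin, rose by a log2 fold change of 0.23 (SE 0.05, adjusted p = 0.00469 from edgeR). BMPER, which binds BMPs and can hinder or help them, fell from 474.7 ± 6.73 to 338 normalised counts (log2 fold change -0.49, SE 0.09, adjusted p = 0.000698 from edgeR). CRIM1, a membrane protein that binds BMPs and the most abundant of this list, did not pass (9389 ± 506 and 9734 ± 490 normalised counts, SD, n = 3 each).

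Enzymes that free or cut BMP precursors also held called genes. FURIN, which cleaves the precursors of BMPs and of TGF-β, rose from 2180 ± 29.5 to 3767 normalised counts (log2 fold change 0.79, SE 0.05, adjusted p = 7.64e-09 from edgeR). BMP1, which despite its name is a protease that trims procollagen and cuts chordin, rose by a log2 fold change of 0.43 (SE 0.08, adjusted p = 0.00099 from edgeR). The other 4 of 6 fitted enzymes did not pass, among them PCSK7 at 699.7 ± 41.1 and 706.5 ± 18.2 normalised counts.

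Of the receptors and co-receptors, 9 of 12 were fitted and 1 was called. BMPR2, the type II receptor shared by most BMPs, had 2046.9, 1966.8 and 2229.7 normalised counts in si-Control and 3648.9, 3041.3 and 3175.1 in the libraries labelled si-CITED2 (log2 fold change 0.66, SE 0.07, adjusted p = 2.52e-06 from edgeR). No type I receptor passed. NEO1, the most abundant receptor that did not, had 2859 ± 72.1 and 3078 ± 72.9 normalised counts.

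The signal carriers themselves did not pass the test, while the ligases that mark SMADs and receptors for destruction did. SMURF2 rose from 3281 ± 113 to 7136 normalised counts (log2 fold change 1.12, SE 0.05, adjusted p = 5.53e-11 from edgeR) and SMURF1 by a log2 fold change of 0.28 (SE 0.05, adjusted p = 0.000924). SMAD1, SMAD4, SMAD5 and SMAD9 had log2 fold changes from -0.09 to 0.10, with SMAD5 at 1490 ± 67.3 and 1599 ± 57.7 normalised counts.

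Besides the ID genes, 17 BMP target genes were listed, of which 12 were fitted, 3 rose and 1 fell. SMAD7, an inhibitory SMAD induced by TGF-β as well as by BMPs, had 57.8, 40.3 and 58.8 normalised counts in si-Control and 332.7, 284.7 and 279.4 in the libraries labelled si-CITED2 (log2 fold change 2.53, SE 0.16, adjusted p = 5.45e-09 from edgeR). SMAD6, the inhibitory SMAD tied more closely to BMPs, rose from 70.46 ± 13 to 112.2 (log2 fold change 0.66, SE 0.19, adjusted p = 0.0215 from edgeR), a call lost without si-Control replicate 1 or 3 or si-CITED2 replicate 3 (adjusted p 0.0667 to 0.136). RUNX2, a transcription factor of bone formation, rose from 147 ± 10.8 to 207.1 (log2 fold change 0.50, SE 0.12, adjusted p = 0.00822), with an adjusted p of at most 0.04998 when 1 library was left out. The 1 that fell was GATA2, a factor of blood and prostate cells, which was named after its value was seen (log2 fold change -0.33, SE 0.09, adjusted p = 0.0209 from edgeR), and it was not called without si-Control replicate 3 or without si-CITED2 replicate 2 or 3 (adjusted p 0.0644 to 0.115). BAMBI, MSX1, MSX2, HEY2, DLX2, GATA3, VENTX and TNFRSF11B did not pass.

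The E proteins that ID proteins bind were not called. TCF3 had 4619 ± 152 and 4449 ± 118 normalised counts (log2 fold change -0.05, SE 0.05), and TCF12 lay as close to 0 (log2 fold change -0.015). TCF4 had 123.5 normalised counts in si-Control replicate 3 and 5.6 to 20.1 in the other 5 libraries, so its log2 fold change of -1.80 (SE 0.79, adjusted p = 0.141 from edgeR) rested on that library. Without it, the log2 fold change was 0.26, and without si-Control replicate 2 it was -2.38 (adjusted p = 0.0199).

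**Figure D4:**
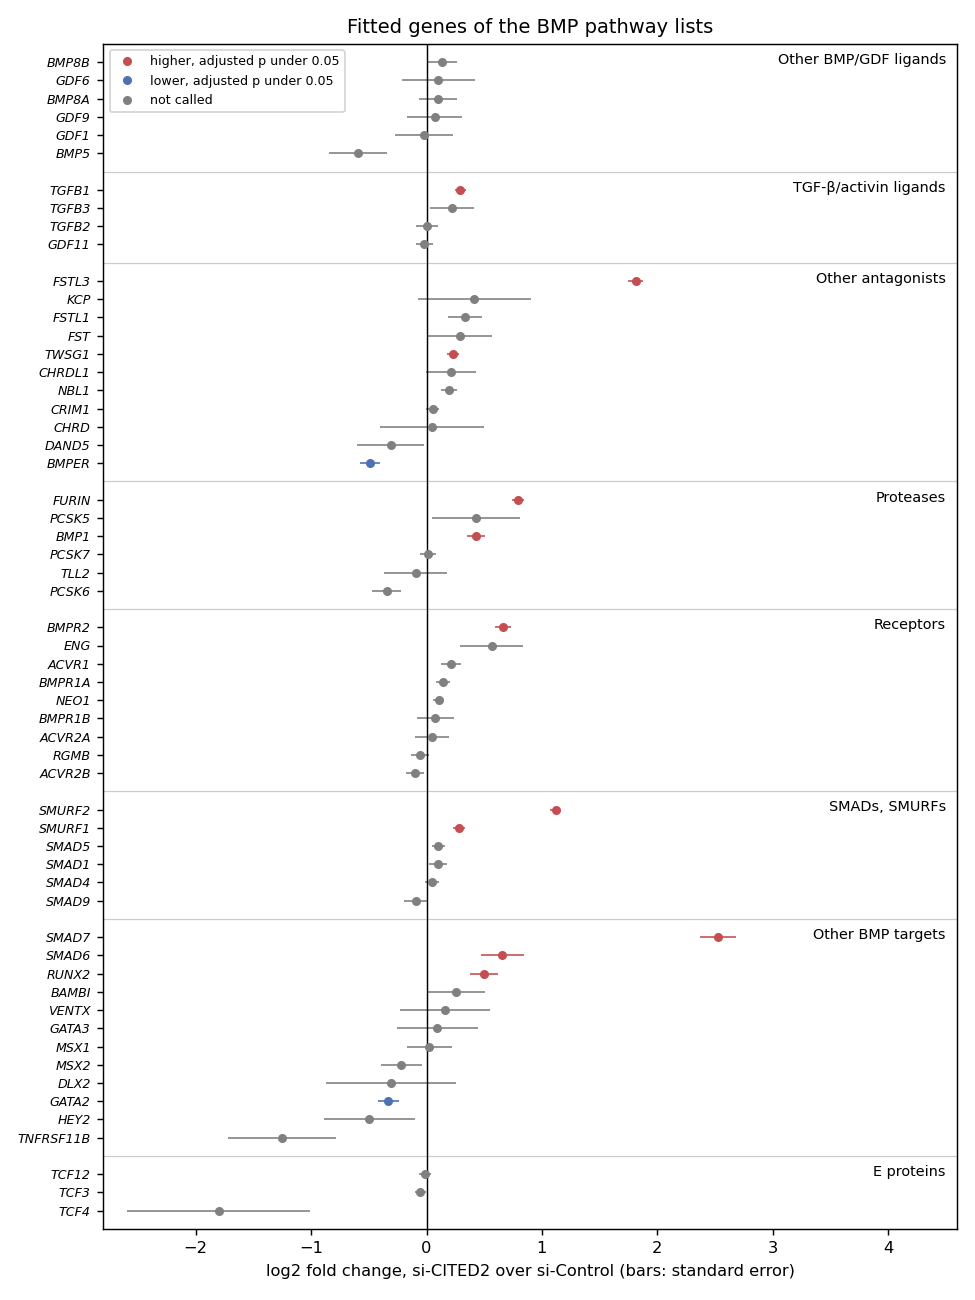
Log2 fold change, si-CITED2 over si-Control, with standard errors (n = 3 per group, edgeR) for the 57 fitted genes of the 8 pathway lists. Red points (11) were higher and blue points (2, BMPER and GATA2) lower at an adjusted p under 0.05, with SMAD7, FSTL3 and SMURF2 farthest to the right.

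Genes with the profile nearest to each ID gene were sought among 12050 or 12051 others averaging at least 100 normalised counts, as the root mean square difference of log2 CPM from the si-Control mean over the 6 libraries. For ID1 these were GLS2, a mitochondrial glutaminase (difference 0.0829), and PIM3, a serine/threonine kinase (0.091), with log2 fold changes of -0.70 each. For ID3 they were DHRS7, a dehydrogenase (0.0394), and TAX1BP3 (0.0449), with log2 fold changes of 0.48 and 0.51. For ID2, RASSF7 and NANOS1 were nearest but differed more (0.152 and 0.153). With 2 groups of 3 libraries, such a match says little beyond a similar fold change.

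**Figure D5:**
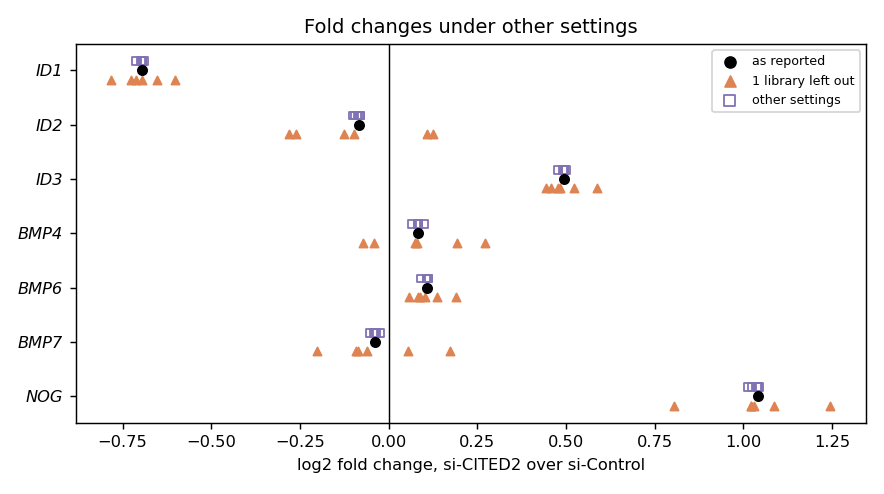
Log2 fold change of the 7 fitted genes as reported (black), with 1 library left out (triangles, 6 per gene) and under the other settings tried (squares, 6 per gene). ID1 stays below 0 and ID3, BMP6 and NOG above 0 at every point, while ID2, BMP4 and BMP7 cross 0 when single libraries are left out.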

How the data were processed

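RNA was extracted with Trizol from 6 PC3 cultures and 1.3 µg of each entered a SMARTer mRNA-seq kit, per the labels. For each culture the authors deposited a file of 25737 rows with raw read counts by gene symbol. The submitters' processing notes name TopHat, edgeR and hg19 without versions or roles; the counting program, annotation and strand setting are not given in the sources used here. For 286 symbols with several rows, the row with the largest sum was used (0.082% of counts dropped). No column was left unused.

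The fit used edgeR 4.0.16 (R 4.3.3): filterByExpr, TMM, glmQLFit and glmQLFTest, unblocked because the study used unpaired tests, with Benjamini-Hochberg adjustment over all 16314 genes. The SE came from the F statistic and intervals are 95%. Normalised counts are scaled to a mean effective library of 23554403 counts. Intervals on counts cover counting error only. Single values were compared by exact permutation, which cannot go below p = 0.1 with 3 against 3. The labels number the replicates without naming a shared batch or day, and the study states that the experiments were repeated independently, without saying whether a repeat held both arms. P-values measure only the spread between these libraries. The scripts were tested on simulated data. Some of the markers checked are not reported here.

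The 10 genes, the pathway lists and the markers were chosen with earlier results of these data known. Named pathway genes were, per list, up to 3 called genes with the largest fold changes and a mean of at least 20 normalised counts, plus the most abundant gene not called. Lengths and positions came from GENCODE 29 (GRCh38), which may differ from the annotation behind the counts. The alternatives were DESeq2 1.42.0, library size alone, 2 other filters (any count, or at least 10 in every sample), summed rows, the replicate number as a block, each library left out, and other length choices, of which the principal transcript was added after the data had been seen.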

Additional observations from a re-analysis of the deposited data

How the results depend on the processing

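The 7 fitted genes kept their side of the threshold under all 12 alternatives, among them DESeq2, library size alone, both filters and summed rows. Leaving out 1 library gave log2 fold changes from -0.78 to -0.60 for ID1, 0.44 to 0.59 for ID3 and 0.80 to 1.25 for NOG, and changed sign for ID2 (-0.28 to 0.13), BMP4 (-0.07 to 0.27) and BMP7 (-0.20 to 0.17), none of them called; BMP6 ran from 0.06 to 0.19. With a block for replicate number, the values were -0.69 for ID1 (adjusted p = 0.000289 from edgeR), 0.50 for ID3 (0.00181) and 1.01 for NOG (0.00723), with 2 genes higher and 1 lower as before. The numbers did not pair the samples (Pearson's r of deviations -0.038, 0.0336 and -0.0109 for same-numbered libraries, across genes), so the block is given as an alternative only. In the 8 pathway lists, the lower calls moved from 2 to 4 when every symbol with a count was kept, with PCSK6 and TCF4 added, and ran from 1 to 3 with 1 library left out. The higher calls ran from 10 to 11 there. The 1 list call added on the higher side was NBL1 (log2 fold change 0.23, adjusted p = 0.0453 from edgeR without si-Control replicate 1). On the lower side, PCSK6 was called without si-Control replicate 1 (-0.46, adjusted p = 0.0177 from edgeR). TCF4 was called lower without si-Control replicate 2 (-2.38, adjusted p = 0.0199), and TNFRSF11B without si-CITED2 replicate 3 (-2.19, adjusted p = 0.0104). The ID1 share changed by -19.8 percentage points, and by -20.7 to -18.7 with 1 library left out. Low counts limit what can be said of ID2, ID4, BMP2 and GREM1. The causes of these shifts were not tested.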
